A study of Mus musculus with 15 samples.

Results

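Telomerase-deficient and telomerase-proficient bone marrow progenitors were compared gene by gene, as the pooled effect of mTerc loss on RNA counts. Of 15 libraries in the series, 14 entered: the 7 deficient libraries were set against 7 proficient ones, with the Puma label as a covariate. The genes described are the 18219 autosomal genes among 18983 that had enough counts to be tested, out of 45706 listed. The other 764 tested genes lie on the X or Y chromosome, in the mitochondrial genome or on no placed position, and are not listed here.

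RNA came from lineage-negative bone marrow (BM) cells of secondary recipient mice, that is, marrow from the femur depleted of mature blood cells on magnetic columns. The proficient libraries were 3 WT and 4 Puma-/-. The deficient ones were 4 G3 mTerc-/-Puma+/+ and 3 whose label reads G3 mTerc-/-Puma-/-, called TercPuma below after their titles. G3 marks mice that had been bred without mTerc over successive generations, so that telomeres shortened. In every group, WT included, LSK cells (the stem cell-containing Lin-Sca1+cKit+ fraction) of young adult C57BL/6J donors had passed through lethally irradiated, congenic wild-type recipients in series. Both deletions were germline and not confined to blood cells of the donor, while the marrow niche and any surviving recipient blood cells were the recipients' own. TercPuma replicate 2 was left out by the rule that set the comparison, and its values are given apart. No label ties the libraries to separate animals, so p-values measure only the spread between these libraries, which may be technical.

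Telomerase adds telomeric repeats to chromosome ends, using a template carried by its RNA subunit, Terc. When it is missing, telomeres shorten with each division until they are sensed as DNA damage, and p53 then induces genes for cell cycle arrest, repair and apoptosis. Puma, the product of Bbc3, is a pro-apoptotic BH3-only protein and is itself induced by p53. Blood-forming tissue divides throughout life and is among the first to fail when telomeres become too short.

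The telomerase RNA is shown first, because its loss defines the deficient libraries. Terc (ENSMUSG00000064796) is annotated as a non-coding RNA of 423 nucleotides on the minus strand of chromosome 3 (GRCm38, chr3:96414437-96414859). The first 120 bases of this annotated transcript, at chr3:96414740-96414859, hold the template, given in capitals in the DNA alphabet. It runs from base 29 to base 36, counted from the annotated start, which may differ from that of the mature RNA.
Terc: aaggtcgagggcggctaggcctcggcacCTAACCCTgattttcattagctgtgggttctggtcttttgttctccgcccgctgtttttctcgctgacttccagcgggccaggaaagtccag
Terc had 7, 17 and 10 counts in the WT libraries and 5, 4, 9 and 11 in Puma-/-. In G3 mTerc-/-Puma+/+ it had 0, 1, 1 and 1 count, and in TercPuma 1, 1 and 0. The classes did not overlap. The summed counts were 63 in the proficient and 5 in the deficient libraries, a ratio of 0.0712 after scaling for library size (95% exact interval 0.0223 to 0.175, counting error only). Poly(A) selection captures this RNA poorly, and it was too low for the test across genes.

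The Puma label did not match the Bbc3 counts in the same way. Bbc3 (ENSMUSG00000002083, chr7:16308393-16318205) lay at 9.67 to 23.5 normalized CPM (counts scaled to a common library total by edgeR's TMM method) in WT and at 5.02 to 6.80 in Puma-/-. It lay at 11.7 to 20.7 in G3 mTerc-/-Puma+/+ and at 13.5 to 17.03 in TercPuma. The TercPuma libraries were thus all above the Puma-/- libraries, and their genotype is given below as labelled. The pooled log2 fold change of Bbc3, deficient against proficient, was 0.70 (adjusted p = 0.550, SE 0.276), where this and every adjusted p below come from edgeR's quasi-likelihood test and Benjamini-Hochberg adjustment. It was -0.082 within the Puma+/+ and 1.48 within the Puma-/- label (unadjusted p of the difference 0.00101), and the sign of the pooled value turned with Ddx3y and Xist as covariates (-0.040) and without TercPuma (-0.082).

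Library totals ran from 102790519 to 158367059 counts, with a median of 113968298. Progenitor genes were abundant in every library: Mpo lay at 6940 to 12213 CPM and Kit at 114 to 164. Markers of mature and stromal cells were present as well, at levels that differed by gene. Cd3e lay at 3.596 to 26.7 CPM, Ly6g at 0.0177 to 2.14 and Col1a1 at 23.7 to 1342. The granulocyte genes Itgam (80.2 to 172) and S100a8 (131 to 1011) and the stromal Cxcl12 (199 to 906) had maxima above that of Kit. None of these was at 0 in a library, and donor and recipient cells cannot be told apart by these genes. In bulk RNA, fewer cells of a type and less RNA per cell cannot be told apart either. The sex of the cells also moved with the classes. Xist lay at 464 to 865 CPM in Puma-/- and at 0.176 to 88.6 in G3 mTerc-/-Puma+/+, and the Y-linked Ddx3y at no more than 0.0446 and at 42.6 to 48.04, respectively. WT held 1.72 to 417 of Xist and 21.2 to 42.97 of Ddx3y, and TercPuma 0.386 to 659.5 and 2.87 to 45.9. For this reason each call below was also fitted with the levels of Ddx3y and Xist as covariates.

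Few autosomal genes differed between the classes. Those that rose in the deficient libraries included Phlda3, Zmat3, Ccng1 and Trp53cor1, which are known to be induced by p53, and the exon junction gene Rbm8a. Those that fell included Iglc2, Fcmr and Ms4a1, which B lymphocytes express. Of 18219 autosomal genes, 15 passed an adjusted p of 0.05 (0.0823%), with 10 higher (0.0549%) and 5 lower (0.0274%) in the deficient libraries. At an unadjusted p under 0.05 there were 1421 genes (7.80%), 639 higher (3.51%) and 782 lower (4.29%). In 28 genes (0.154%) the 7 deficient and the 7 proficient libraries did not overlap, 13 with the deficient libraries higher (0.0714%) and 15 with them lower (0.0823%), and 11 of the 15 genes were among these. In all 15 genes the classes were separate within each Puma label, as they were in 74 genes over all (0.406%). The number of calls depended on the fit: without WT replicate 3, 65 genes passed (16 higher, 49 lower), and with DESeq2 in place of edgeR 158 passed (45 higher, 113 lower). Only 6 passed with the levels of Ddx3y and Xist as covariates (2 higher, 4 lower), 6 without TercPuma (3 higher, 3 lower) and 8 with all 15 libraries (7 higher, 1 lower).

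**Figure D1:**
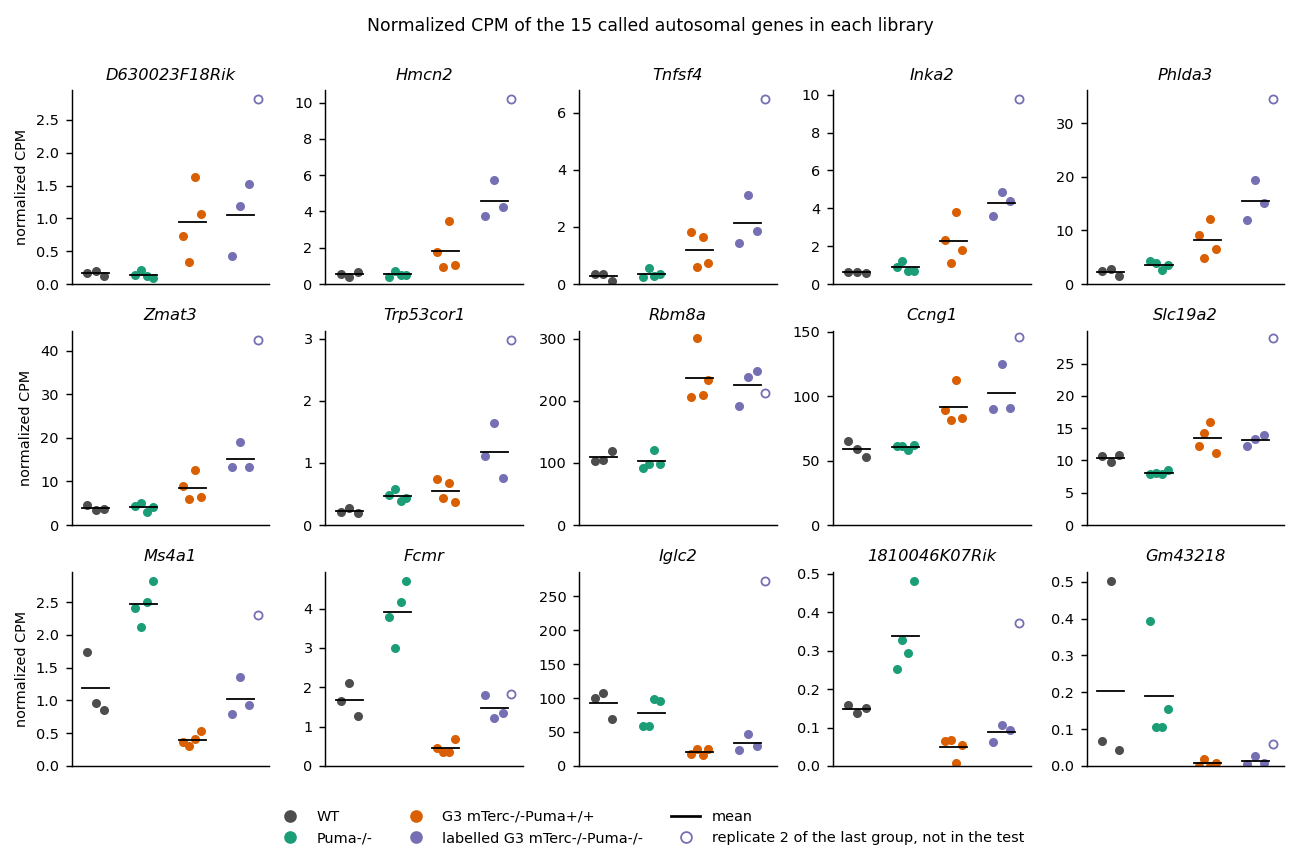
Normalized CPM (y axes, linear, each from 0) of the 15 autosomal genes past an adjusted p of 0.05, with 1 point per library, the 4 groups side by side and a line at each group mean. The 10 genes that rose and the 5 that fell are separate within each Puma label, and the open circle marks replicate 2 of the last group, which did not enter the test.

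Of the 10 genes that rose, at least 4 are known to be induced by p53. Phlda3, Zmat3 and Ccng1 were in the p53 target list used here, and Trp53cor1 was not. Phlda3 (ENSMUSG00000041801, chr1:135766119-135769136, plus strand) encodes a small pleckstrin-homology protein that competes with Akt for membrane lipids. It lay at 2.40, 2.80 and 1.49 CPM in WT and at 4.30, 4.02, 2.69 and 3.53 in Puma-/-. It lay at 9.14, 4.82, 12.1 and 6.53 in G3 mTerc-/-Puma+/+, and at 11.9, 19.4 and 15.1 in TercPuma replicates 1, 3 and 4. All deficient libraries were above all proficient ones, with G3 mTerc-/-Puma+/+ replicate 2 the closest. The log2 fold change was 1.98 (adjusted p = 0.00165, SE 0.213).

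Zmat3 (ENSMUSG00000027663, chr3:32334792-32366014, minus strand), a zinc-finger RNA-binding protein, lay at 4.65, 3.50 and 3.75 CPM in WT and at 4.41, 5.07, 3.05 and 4.13 in Puma-/-. It lay at 8.88, 6.07, 12.6 and 6.32 in G3 mTerc-/-Puma+/+ and at 13.4, 18.99 and 13.2 in TercPuma. The classes did not overlap, and the TercPuma libraries were the highest. The log2 fold change was 1.48 (adjusted p = 0.00708, SE 0.203).

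Ccng1 (ENSMUSG00000020326, chr11:40748552-40755311, minus strand), which encodes cyclin G1, was the most abundant of these 4. It ran from 81.4 to 125 CPM with a median of 90.1 in the deficient libraries, and from 52.9 to 64.9 with a median of 61.0 in the proficient ones. Every deficient library was above every proficient one, by a small margin relative to the level. Its log2 fold change of 0.69 was the second smallest among the rises (adjusted p = 0.00621, SE 0.0897). Trp53cor1 (ENSMUSG00000085912, chr17:29057430-29079179, minus strand) is the long non-coding RNA known as lincRNA-p21, transcribed next to Cdkn1a. It ran from 0.363 to 1.64 CPM (median 0.739) against 0.194 to 0.576 (median 0.384), and 5 of 7 deficient libraries were above all proficient ones. Its log2 fold change was 1.30 (adjusted p = 0.0317, SE 0.212), and opposite-strand annotations overlap it, from which its reads cannot be told apart if strand was not used in counting.

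The gene with the smallest p of all was Rbm8a (ENSMUSG00000038374, chr3:96629933-96633791, plus strand). It encodes Y14, which with Magoh forms the core of the exon junction complex that marks spliced mRNA. Rbm8a lay at 103, 105 and 119 CPM in WT and at 91.4, 98.5, 121 and 98.4 in Puma-/-. It lay at 207, 301, 209 and 233 in G3 mTerc-/-Puma+/+ and at 192, 237 and 247 in TercPuma. The lowest deficient library was thus well above the highest proficient one, and here G3 mTerc-/-Puma+/+ replicate 2, lowest for 7 of the 10 genes that rose, was the highest. The log2 fold change was 1.13 (adjusted p = 0.000163, SE 0.0962), a 2.19-fold higher level. Of 17 members of the exon junction complex and nonsense-mediated decay tested, Rbm8a alone passed. Magoh had a log2 fold change of 0.20 (adjusted p = 0.677, SE 0.103) and Magohb of 0.15 (adjusted p = 0.7097, SE 0.0830). The near-identical copy Rbm8a2 (mean 0.522 CPM against 0.229) had a log2 fold change of 1.16 (adjusted p = 0.186, SE 0.262), and reads may be shared between the copies. This list was chosen after its values were seen.

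Like Trp53cor1 and Rbm8a, the other 5 genes that rose were not in the p53 target list used here. Whether p53 induces them was not tested. Inka2 (ENSMUSG00000048458, chr3:105704599-105720842, plus strand), an inhibitor of the Pak4 kinase, ran from 1.11 to 4.84 CPM (median 3.58) against 0.591 to 1.20 (median 0.680). A single pair of libraries overlapped, G3 mTerc-/-Puma+/+ replicate 2 and Puma-/- replicate 2. The log2 fold change was 2.07 (adjusted p = 0.00262, SE 0.238). Tnfsf4 (ENSMUSG00000026700, chr1:161395409-161418410, plus strand), which encodes the co-stimulatory OX40 ligand, ran from 0.598 to 3.13 CPM (median 1.63) against 0.115 to 0.558 (median 0.343). The classes did not overlap, and the log2 fold change was 2.37 (adjusted p = 0.00902, SE 0.342). Hmcn2 (ENSMUSG00000055632, chr2:31314415-31460738, plus strand), a large extracellular matrix protein of the hemicentin family, ran from 0.921 to 5.74 CPM (median 3.48) against 0.38 to 0.744 (median 0.526). It had a log2 fold change of 2.41 (adjusted p = 0.00834, SE 0.343), again without overlap.

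The largest log2 fold change among the rises, 2.72 (adjusted p = 0.00708, SE 0.367), belonged to D630023F18Rik (ENSMUSG00000044816, chr1:65105285-65123214, minus strand), a protein-coding gene of no assigned role. It ran from 0.333 to 1.63 CPM (median 1.07) against 0.0906 to 0.213 (median 0.134), and a same-strand annotation, Gm28845, overlaps it. Slc19a2 (ENSMUSG00000040918, chr1:164249046-164265385, plus strand), a thiamine transporter, had the smallest, 0.54 (adjusted p = 0.0490, SE 0.0929). It ran from 11.2 to 16.02 CPM (median 13.4) against 7.86 to 10.8 (median 8.55). Neither gene overlapped between the classes, although the margin was narrow for Slc19a2.

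Of the 5 genes that fell, 4 are genes of B lymphocytes or of immunoglobulin. Iglc2 (ENSMUSG00000076937, chr16:19198396-19200351, minus strand) encodes a constant region of the immunoglobulin lambda light chain. It lay at 100, 108 and 69.6 CPM in WT and at 58.2, 58.9, 99.2 and 95.8 in Puma-/-. It lay at 17.6, 25.6, 16.2 and 25.5 in G3 mTerc-/-Puma+/+ and at 23.5, 46.4 and 29.4 in TercPuma. Every deficient library was below every proficient one, and the log2 fold change was -1.68 (adjusted p = 0.00668, SE 0.222). Reads of lambda segments can be split between near-identical copies, and Iglj2 overlaps Iglc2 on the same strand.

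Fcmr (ENSMUSG00000042474, chr1:130865669-130880791, plus strand), the Fc receptor for immunoglobulin M, lay at 1.66, 2.10 and 1.28 CPM in WT and at 3.78, 2.99, 4.17 and 4.70 in Puma-/-. It lay at 0.453, 0.353, 0.350 and 0.698 in G3 mTerc-/-Puma+/+ and at 1.81, 1.22 and 1.36 in TercPuma. Within each Puma label the classes were apart, but the TercPuma libraries overlapped WT. Its log2 fold change was -1.63 (adjusted p = 0.00271, SE 0.193). Ms4a1 (ENSMUSG00000024673, chr19:11249675-11266241, minus strand), which encodes the B cell surface protein CD20, had the same layout. It ran from 0.304 to 1.35 CPM (median 0.539) against 0.856 to 2.83 (median 2.12), with a log2 fold change of -1.40 (adjusted p = 0.00708, SE 0.195). An antisense annotation overlaps Ms4a1. Without the Puma label as a covariate, neither Fcmr nor Ms4a1 passed.

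The other two falls rested on few counts. 1810046K07Rik (ENSMUSG00000036027, chr9:51289686-51328917, minus strand), a gene of no assigned role, ran from 0.00833 to 0.105 CPM (median 0.0658) against 0.139 to 0.480 (median 0.251), with a log2 fold change of -1.78 (adjusted p = 0.0490, SE 0.309). Gm43218 (ENSMUSG00000105432, chr6:70240427-70240972, minus strand), annotated as an immunoglobulin variable gene in the kappa locus, had 0 to 3 counts in a deficient library and 5 to 54 in a proficient one. Its adjusted p was 0.0490, and the ratio of the summed counts, 8 against 154, was 0.0466 after scaling for library size (95% exact interval 0.0198 to 0.0941). Neither gene overlapped between the classes.

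Within both Puma labels the log2 fold change of each of the 15 genes had the same sign, which is largely fixed by their choice on the pooled effect, an average over the labels. For Rbm8a the log2 fold change was 1.12 (SE 0.144) for G3 mTerc-/-Puma+/+ against WT and 1.14 (SE 0.139) for TercPuma against Puma-/-. Phlda3 gave 1.87 (SE 0.318) and 2.09 (SE 0.300). The difference between the labels had an unadjusted p under 0.05 in 3 of the 15 genes, beside 4.90% of all genes, and an adjusted p under 0.05 in none of them, beside 0.0220% of all genes. In edgeR's test of this difference Hmcn2 gave an unadjusted p of 0.0323, with log2 fold changes of 1.72 and 3.08. Zmat3 gave 0.0486, with 1.10 and 1.87, and Iglc2 gave 0.0341, with -2.13 and -1.24.

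**Figure D2:**
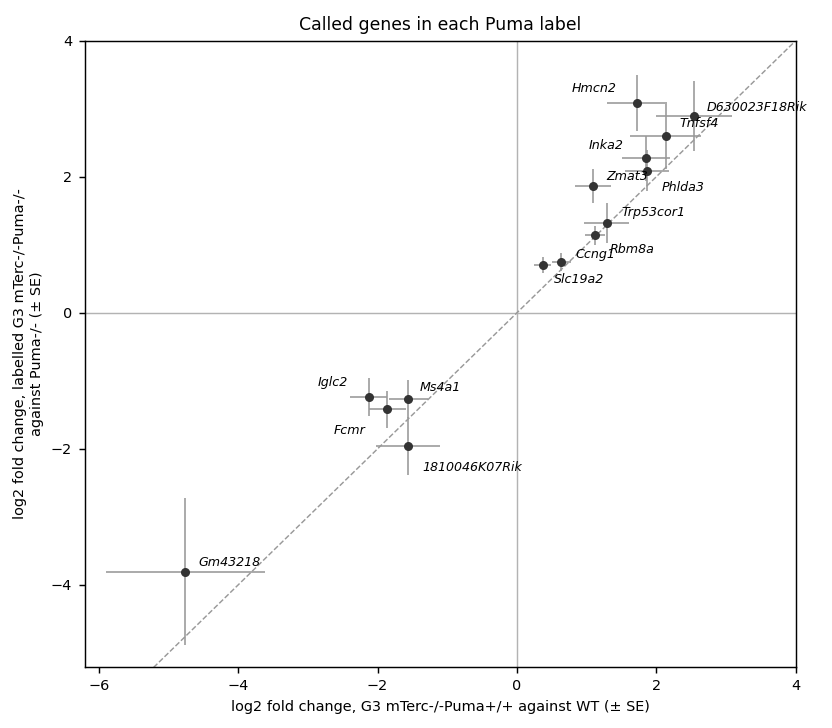
Log2 fold change of each of the 15 genes among Puma+/+ libraries (x axis) and among libraries labelled Puma-/- (y axis), each with its SE as a bar; the dashed diagonal marks equal change. The genes were chosen on the pooled effect and all 15 points lie in the quadrants of like direction, with Hmcn2 and Zmat3 above the diagonal by more than their SE.

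Agreement of sign was also looked up for genes picked within either Puma label and not on the pooled effect. It cannot be ranked against that of the genes just described, whose like sign was largely fixed by their choice. Of 168 autosomal genes at an unadjusted p under 0.01 among the Puma+/+ libraries, 120 (71.4%) had the same sign among the Puma-/- ones. Of 478 genes picked in the Puma-/- label, 338 (70.7%) had the same sign in the other. Over all genes the share was 56.3%. Without WT replicate 2 the shares were 43.0% and 51.8%, and without G3 mTerc-/-Puma+/+ replicate 2 they were 54.0% and 62.0%.

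TercPuma replicate 2, left out of the 14-library comparison, was looked up for the same genes. All 10 genes that rose lay above every proficient library in it, and the share of all genes that did so was not counted. This library differed more from its replicates (chi-square per gene 277 to 557) than other replicates did from each other (29.6 to 209). Phlda3 reached 34.5 CPM, Zmat3 42.5, Hmcn2 10.2 and Ccng1 146, each above every other deficient library too, while Rbm8a at 212 lay within their range. The genes that fell behaved differently, and 0 of 5 lay below every proficient library. Iglc2 was at 272 CPM, above all of them, and Fcmr at 1.83 and Ms4a1 at 2.30 lay within the proficient range.

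With Ddx3y and Xist as covariates, adjusted p-values stayed under 0.05 for Rbm8a (0.00616), Iglc2 (0.00544) and Fcmr (0.0395). For the other 12 genes they ran from 0.146 to 0.99986. Phlda3 then had a log2 fold change of 1.77 (adjusted p = 0.148), Inka2 of 1.73 (adjusted p = 0.288), Hmcn2 of 1.53 (adjusted p = 0.858) and Zmat3 of 1.01 (adjusted p = 0.643). Without the TercPuma libraries, only Rbm8a (adjusted p = 0.0228) and Iglc2 (adjusted p = 0.0182) of the 15 passed. With each library left out in turn (14 fits), 11 of the 15 genes always passed, while Trp53cor1 passed in 5, 1810046K07Rik in 3, and Slc19a2 and Gm43218 in 2.

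Promoters bear on the p53 targets, since p53 binds a pair of decameric half-sites. RefSeq promoters (GRCm38.p6, 250 bases before to 50 after a start) were given for 8 of the 15 genes, 10 promoters in all. The p53 consensus half-site, searched by itself on both strands, occurred in 3 of these 10. The promoters of 2 genes that rose, and a second start of Inka2, are printed because they hold it, in capitals.
Ccng1 promoter: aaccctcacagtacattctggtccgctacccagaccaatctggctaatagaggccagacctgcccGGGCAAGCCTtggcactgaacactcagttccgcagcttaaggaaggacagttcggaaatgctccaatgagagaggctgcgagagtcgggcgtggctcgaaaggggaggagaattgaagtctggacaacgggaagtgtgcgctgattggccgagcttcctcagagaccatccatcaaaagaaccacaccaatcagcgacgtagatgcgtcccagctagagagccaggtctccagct
D630023F18Rik promoter: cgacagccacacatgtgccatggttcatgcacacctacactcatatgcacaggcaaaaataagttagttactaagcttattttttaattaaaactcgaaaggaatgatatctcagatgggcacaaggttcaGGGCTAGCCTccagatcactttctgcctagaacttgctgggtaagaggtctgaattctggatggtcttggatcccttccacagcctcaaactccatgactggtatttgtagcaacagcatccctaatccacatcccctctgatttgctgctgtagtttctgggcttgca
Inka2 promoter: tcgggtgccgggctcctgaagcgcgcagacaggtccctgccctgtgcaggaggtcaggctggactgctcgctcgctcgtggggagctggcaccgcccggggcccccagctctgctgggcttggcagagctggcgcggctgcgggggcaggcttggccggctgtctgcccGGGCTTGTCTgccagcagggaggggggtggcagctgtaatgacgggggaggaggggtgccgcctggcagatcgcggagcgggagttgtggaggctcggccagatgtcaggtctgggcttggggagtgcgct
They lie at chr11:40755237-40755536 (minus), chr1:65123165-65123464 (minus) and chr3:105705208-105705507 (plus). Among all 31396 autosomal promoters 8.35% held a half-site, and among 46 promoters of the p53 target list 12 did (26.1%). No promoter of the 10 held adjoining half-sites. A match is a stretch of letters and not a shown binding site, and no binding was measured here.

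Rbm8a lies close to the deleted gene, and the neighbourhood of Terc was therefore looked at by itself. The 2 genes are 215 kb apart on chromosome 3. Of 70 autosomal genes tested within 1 Mb of Terc, Rbm8a alone passed, and 8.57% had an unadjusted p under 0.05, beside 7.80% of all genes. Within 10 Mb, 2 of 362 passed, Rbm8a and Inka2 (9.29 Mb away), and 7.46% had an unadjusted p under 0.05. On all of chromosome 3, Zmat3 also passed, which made 3 of 1000 genes. Close neighbours of Rbm8a gave log2 fold changes of 0.058 (Lix1l, SE 0.113), 0.31 (6330549D23Rik, SE 0.152), -0.098 (Polr3gl, SE 0.0837) and -0.088 (Itga10, SE 0.138). Their adjusted p-values were 0.663 or higher. Further out, Ankrd35 had a log2 fold change of -1.20 (adjusted p = 0.227, SE 0.282) and Gm128 of -3.48 (adjusted p = 0.179, SE 0.774), and both are named after their values were seen. Around Bbc3, 0 of 190 genes within 10 Mb and 0 of 455 within 20 Mb passed in edgeR's test, with 12 and 27 at an unadjusted p under 0.05. This test is of the mTerc effect with the Puma label as a covariate. It therefore does not measure an effect of the Puma deletion on its neighbours and is no control for the Terc region. The part of the targeted locus in the level of Rbm8a was not tested.

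**Figure D3:**
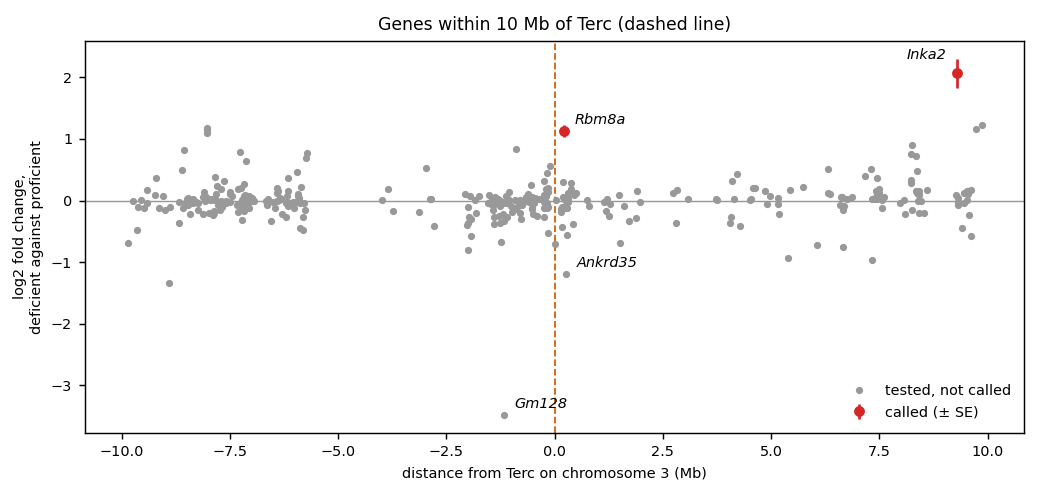
Log2 fold change, deficient against proficient (y axis), of 362 tested genes by distance from Terc on chromosome 3 in Mb (x axis); red points with SE bars passed an adjusted p of 0.05. Rbm8a stands at 1.13, Ankrd35 close by at -1.20, and Inka2 at 2.07 lies 9.29 Mb away.

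Beyond the 15 genes, the p53 targets leaned upward as a group. Of 41 members tested, 3 rose (Phlda3, Zmat3 and Ccng1). At an unadjusted p under 0.05, 17 were higher and 0 lower, beside 3.51% and 4.29% of all genes. A log2 fold change above 0 was found in 35, against 53.2% of all genes. The median log2 fold change was 0.21, beside 0.011 over all genes. Among the Puma+/+ libraries the median was 0.074 and among the Puma-/- ones 0.48. For the difference between the labels, 10 of 41 members had an unadjusted p under 0.05, beside 4.90% of all genes. The pooled median was 0.060 with Ddx3y and Xist as covariates and 0.080 without TercPuma. Bbc3 is itself a member. Psrc1, a microtubule-associated protein, ran from 26.5 to 44.4 CPM (median 36.7) against 24.1 to 28.3 (median 24.5) with a log2 fold change of 0.49 (adjusted p = 0.0835, SE 0.0927), and Zfp365 from 0.205 to 1.49 against 0.0834 to 0.390, with 2.05 (adjusted p = 0.0986, SE 0.406).

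The arrest gene Cdkn1a and the death gene Bax lay higher in most deficient libraries, and neither passed. Cdkn1a, the cyclin-dependent kinase inhibitor p21, ran from 37.5 to 110 CPM (median 77.5) against 22.0 to 56.3 (median 24.8), and 6 of 7 deficient libraries exceeded all proficient ones. Its log2 fold change was 1.21 (adjusted p = 0.158, SE 0.260), with 0.51 in the Puma+/+ and 1.90 in the Puma-/- label (unadjusted p of the difference 0.00226). Bax, an effector of mitochondrial apoptosis, ran from 82.8 to 121 CPM against 67.8 to 88.0, with a log2 fold change of 0.45 (adjusted p = 0.109, SE 0.0907). Of 7 inhibitors of cyclin-dependent kinases and 17 members of the BCL2 family, 0 passed in edgeR's test, and 1 and 3 were higher at an unadjusted p under 0.05. Of 14 genes for p53 and its regulators 0 passed, with 1 lower and 0 higher at an unadjusted p under 0.05.

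The telomere maintenance genes themselves did not pass. Of 11 tested genes of the telomerase holoenzyme 0 passed or had an unadjusted p under 0.05. Their median log2 fold change was 0.058, and 11 of 11 lay above 0, beside 53.2% of all genes. Of 14 shelterin and end-protection genes 0 passed, and Stn1, of the end-binding CST complex, had the smallest p (log2 fold change -0.21, SE 0.0894, adjusted p = 0.596). Of 27 genes of the DNA damage response and repair, 0 passed and 1 was higher at an unadjusted p under 0.05.

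Megakaryocyte and platelet genes leaned downward, mainly in the Puma-/- label. Of 24 tested, 0 passed, 18 were lower and 0 higher at an unadjusted p under 0.05 (4.29% of all genes were lower), and the median log2 fold change was -0.98. The median was -0.23 among the Puma+/+ libraries and -1.59 among the Puma-/- ones, and 16 of 24 had an unadjusted p under 0.05 for the difference, beside 4.90% of all genes. Gp1ba, a subunit of the platelet receptor for von Willebrand factor, lay at 3.89 to 5.71 CPM (median 4.47) against 3.65 to 16.4 (median 11.6), with a log2 fold change of -0.99 (adjusted p = 0.268, SE 0.248). Pf4, platelet factor 4, lay at 15.1 to 37.0 (median 19.8) against 19.02 to 116 (median 63.2), with -1.31 (adjusted p = 0.279, SE 0.337). The summed level of the list was 981 to 1341 CPM in Puma-/-, 632 to 853 in WT, and 604 to 768 in the deficient libraries, so that the Puma-/- libraries stood above all others. The pooled median was -0.19 with Ddx3y and Xist as covariates.

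**Figure D4:**
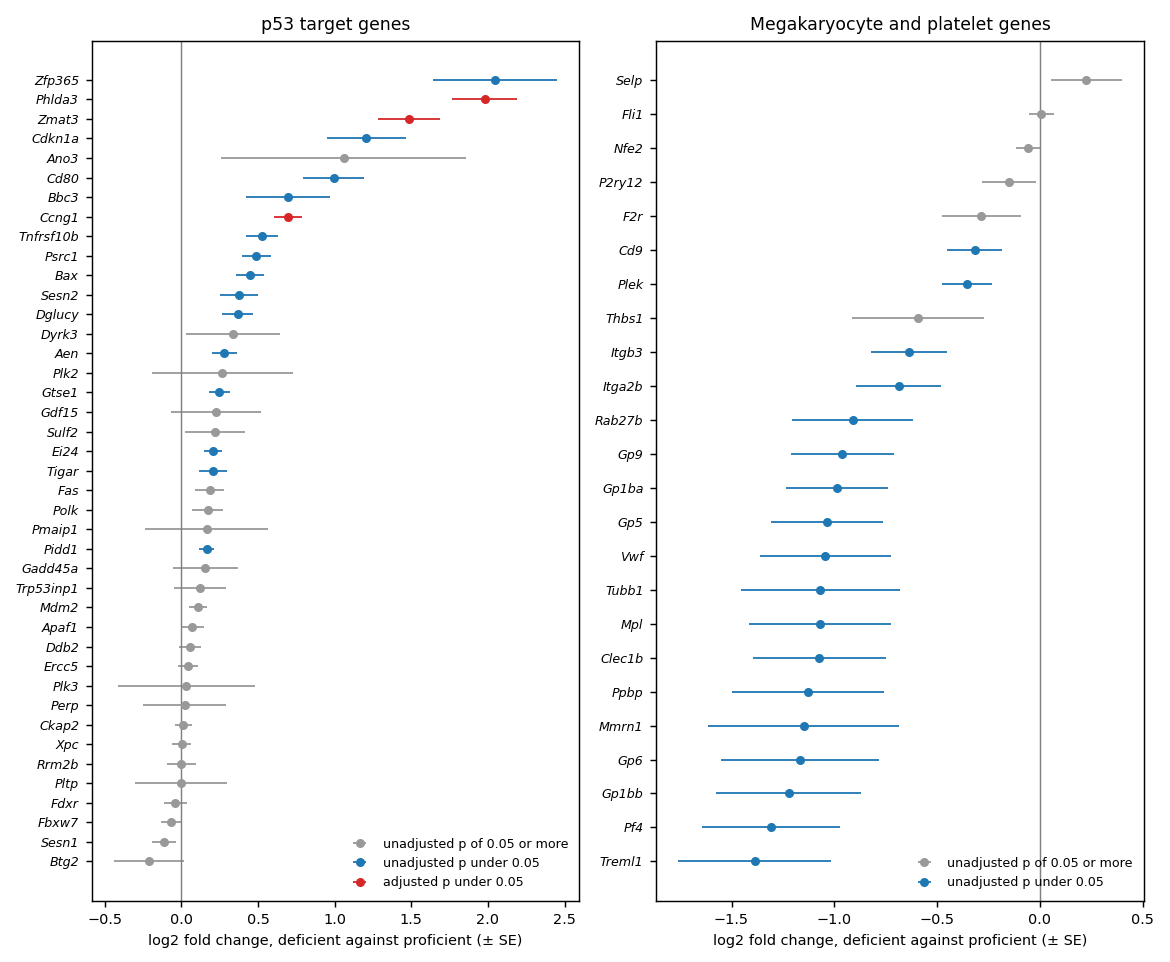
Log2 fold change with SE (x axes) of each tested p53 target and each megakaryocyte or platelet gene, coloured by whether the unadjusted or adjusted p was under 0.05. Of the p53 targets 35 of 41 lie above 0, and of the megakaryocyte and platelet genes 22 of 24 lie below it.

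Immunoglobulin segments leaned downward in both labels. Of 97 kappa segments tested, 1 fell (Gm43218), and 42 were lower and 0 higher at an unadjusted p under 0.05. Over all genes 4.29% were lower and 3.51% higher at that threshold. The kappa median log2 fold change was -1.25, with -1.27 and -1.24 in the Puma+/+ and Puma-/- labels. Of 110 heavy chain segments 0 passed, 34 were lower and 1 higher, and the median was -1.17 (-1.21 and -1.11). Of 10 lambda segments, 1 fell (Iglc2) and 8 were lower, with a median of -1.68. With all 15 libraries the medians were -0.51 for the kappa and -0.64 for the heavy chain segments. The summed kappa level was 1508 to 7110 CPM in the deficient and 6482 to 9183 in the proficient libraries. Igkc, the kappa constant region, ran from 1061 to 5162 CPM (median 2764) against 4320 to 7562 (median 5136), and 6 of 7 deficient libraries were below all proficient ones. Other abundant segments differed in their change. Ighm had a mean of 1602 CPM against 4221, with a log2 fold change of -1.48 (adjusted p = 0.353, SE 0.419). Igha had 2820 against 3529, with -0.31 (adjusted p = 0.910, SE 0.458), and Iglc1 206 against 197, with -0.22 (adjusted p = 0.952, SE 0.594). Ighm had a log2 fold change of -2.34 in the Puma+/+ and -0.61 in the Puma-/- label (unadjusted p of the difference 0.0278 in edgeR's test). For Igkc these values were -1.57 and -0.56 (0.0614), and for Igha -0.36 and -0.26 (0.920). The summed lambda level was 109 to 1911 CPM in the deficient libraries, where the highest, G3 mTerc-/-Puma+/+ replicate 2, exceeded every proficient library. Segments are near-identical families whose reads may be split, and these 3 lists were chosen after their values were seen. On chromosomes 6 and 12, which carry the kappa and heavy chain loci, 12.8% and 11.8% of genes had an unadjusted p under 0.05, above the 7.80% of all autosomal genes. These shares count the segments just described, so they are not a separate observation.

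Other B lineage genes shared this downward lean only in the Puma+/+ label. There 21 of 25 tested lay below 0, whereas 20 lay above 0 in the Puma-/- label. Over all 18219 genes, 8277 lay below 0 in the first and 9523 above 0 in the second. In the pooled test Ms4a1 fell. At an unadjusted p under 0.05, 4 were higher (Rag1, Rag2, Vpreb2, Vpreb3), beside 3.51% of all genes. The 6 lower were Ms4a1, Fcrla, Cr2, Cd22, Pou2af1 and Cd79b, beside 4.29% of all genes. The median log2 fold change was -0.54 in the Puma+/+ and 0.59 in the Puma-/- label. For the difference between them 13 of 25 genes had an unadjusted p under 0.05, beside 4.90% of all genes. Fcrla, an Fc receptor-like protein of B cells, had a log2 fold change of -1.15 in the first and 0.069 in the second (unadjusted p of the difference 0.000128). Rag1, of the recombinase that assembles antigen receptors, had 0.42 and 2.30. The summed level of the list ran from 115 to 475 CPM in the deficient and from 191 to 296 in the proficient libraries, and its part in the lower immunoglobulin counts was not tested. All 10 genes of MHC class II presentation lay below 0, whereas 53.2% of all genes lay above it. Of the 10, 6 had an unadjusted p under 0.05, and 4.29% of all genes were lower at that threshold. The MHC class II median was -0.38 (-0.21 with Ddx3y and Xist as covariates). Cd74, the invariant chain, ran from 247 to 640 CPM (median 442) against 557 to 929 (median 757), with a log2 fold change of -0.62 (adjusted p = 0.279, SE 0.160).

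Erythroid and late neutrophil genes leaned upward. All 27 erythroid genes tested lay above 0, 10 at an unadjusted p under 0.05 and 0 past the adjusted threshold. Over all genes 53.2% lay above 0 and 3.51% were higher at an unadjusted p under 0.05. The erythroid median log2 fold change was 0.47 (0.10 and 0.63 in the labels). Fech, the enzyme that completes heme, ran from 31.8 to 36.9 CPM against 27.9 to 34.9, with 0.15 (adjusted p = 0.472, SE 0.0537). Of 18 late neutrophil granule genes 15 lay above 0 and 6 had an unadjusted p under 0.05, with a median of 0.73 (0.20 and 1.03). Chil3, a secreted chitinase-like protein, ran from 122 to 581 CPM (median 299) against 39.5 to 230 (median 137), with 1.17 (adjusted p = 0.440, SE 0.388). The summed neutrophil level was highest, at 4492 and 3975 CPM, in TercPuma replicates 3 and 4, and the classes overlapped. With Ddx3y and Xist as covariates the medians were 0.088 for the erythroid and 0.068 for the neutrophil list.

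**Figure D5:**
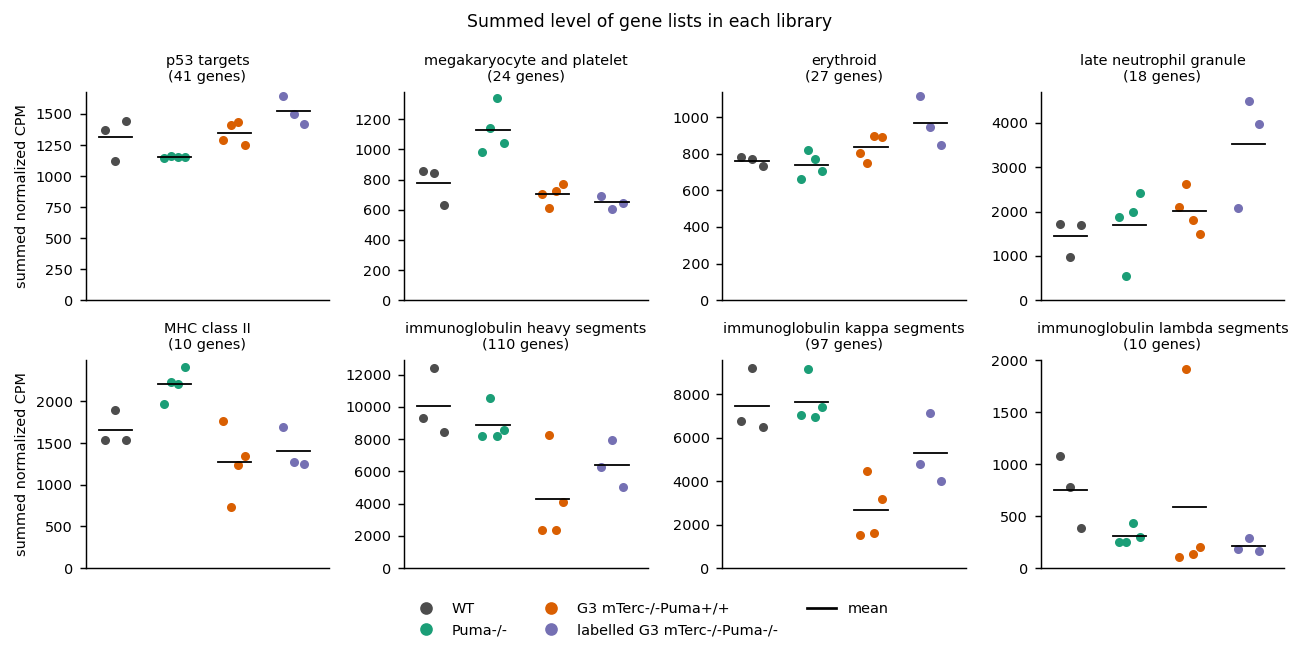
Summed normalized CPM (y axes, linear, each from 0) of 8 gene lists in each of the 14 libraries, by group, with a line at each group mean. The heavy and kappa chain sums are lower in most deficient libraries in both labels, whereas the megakaryocyte sum stands out in Puma-/-.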

How the data were processed

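RNA of lineage-negative BM cells was sequenced from TruSeq stranded poly(A) libraries. The authors trimmed reads with Trimmomatic 0.38, aligned them to mm10 (GRCm38) with STAR 2.5.2b and deposited raw counts per gene, without normalization. The annotation release and the strand setting of the counting are not given in the sources used here. Genes were named and placed with GENCODE M21, and 563 identifiers without a symbol held 0.0643% of the counts. Members, lists and tests were chosen with earlier results of these data known.

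Tests on the counts of 14 libraries used edgeR 4.0.16 under R 4.3.3 (filterByExpr on the 4 genotypes, TMM factors of 0.926 to 1.07, quasi-likelihood test of an additive model of the mTerc and Puma labels, common biological coefficient of variation 0.257). Within-label effects and their interaction came from a fit of the 4 group means. P-values were adjusted by Benjamini-Hochberg over all 18983 genes, with a threshold of 0.05, before non-autosomal genes were set aside. CPM are TMM-normalized over the 14 libraries, with TercPuma replicate 2 scaled over all 15. A count of 0 allows up to 3 counts, at most 0.0295 CPM, counting error only. The chi-square per gene between replicates was 29.6 to 557, so no pair agreed within counting error.

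The genes named are Terc, Bbc3, all autosomal genes past the threshold, called members of the lists and, per list described, up to 2 further members with the smallest p. Some others are named outside this rule, among them cell markers, Igkc, Ighm, Igha and Iglc1. Alternatives were other covariates, all 15 libraries, a replicate block, library size alone, other count filters, DESeq2 1.42.0, limma-voom (limma 3.58.1) and leaving out each library. The additive pooled fit was tested with edgeR, limma-voom and DESeq2 on simulated data with known changes, and the other fits were not. Promoters came from RefSeq. A few genes entered the fits but their values are not reported here.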

Additional observations from a re-analysis of the deposited data

Results flagged for a closer look

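The mTerc effect differed between the Puma labels in 4 autosomal genes (0.0220%) by edgeR's quasi-likelihood test of the interaction, at a Benjamini-Hochberg adjusted p of 0.05, beside 893 at an unadjusted p under 0.05 (4.90%). For Gm15446, a predicted gene, the log2 fold change in the Puma-/- label minus that in the Puma+/+ label was -4.44 (adjusted p = 9.86e-08). It lay at 0.343 to 0.441 CPM in WT and at 6.57 to 9.56 in the libraries of the other 3 groups, so that WT alone stood apart. The same layout was found for 1010001B22Rik, with 0 to 1 count in a WT library and 14 to 34 elsewhere, a difference of -5.92 (adjusted p = 0.0135). Cep85, a centrosomal protein, differed by 1.65 (adjusted p = 0.0278), with 170 to 200 CPM in WT, 68.7 to 97.0 in Puma-/-, 84.1 to 105 in G3 mTerc-/-Puma+/+ and 87.5 to 159 in TercPuma. Ankrd63 differed by -2.30 (adjusted p = 0.0386), with 2.72 to 5.90 CPM in Puma-/- and 1.12 to 2.43 in the other 3 groups. None of these 4 is among the 15 genes of the pooled effect.

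TercPuma replicate 2, which was left out of the 14-library comparison, lay above every proficient library in all 10 genes that rose. The values were 2.81 CPM for D630023F18Rik, 10.2 for Hmcn2, 6.47 for Tnfsf4, 9.77 for Inka2 and 34.5 for Phlda3. They were 42.5 CPM for Zmat3, 2.98 for Trp53cor1, 212 for Rbm8a, 146 for Ccng1 and 28.9 for Slc19a2. Iglc2, which fell in the other deficient libraries, was at 272 CPM there and also above every proficient library. The share of all genes above every proficient library there was not counted.

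Among the 4 Puma-/- libraries, Gm43218 in replicate 1 stood apart from the rest at 0.393 CPM. This was 1 of 60 groups examined in this way, where chance would set apart about 1 in 20.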

How the results depend on the processing

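Rbm8a passed in all 12 alternative settings and in all 14 fits that left out a library. Of the 15 genes, 11 passed in all 14 such fits, and the others were 1810046K07Rik (3 fits), Gm43218 and Slc19a2 (2 each) and Trp53cor1 (5). The number of genes called, 15 (10 higher, 5 lower), was 43 (16 and 27) for the average of the within-label effects and 8 (7 and 1) with all 15 libraries. It was 6 (2 and 4) with Ddx3y and Xist as covariates, 6 (3 and 3) without the TercPuma libraries and 158 (45 and 113) with DESeq2. The cause of these shifts was not tested. Leaving out 1 library gave 11 to 65 genes, the highest without WT replicate 3 (16 higher, 49 lower). With a replicate block 10 genes were called, 9 of them shared. Replicate numbers did not pair the libraries: deviations of 18 same-numbered pairs correlated at -0.253 to 0.175 (median 0.020). Adjustment over autosomal genes alone gave 12 genes. Without the Puma label as a covariate, Fcmr, Ms4a1, Trp53cor1, Slc19a2 and 1810046K07Rik did not pass.

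The 4 genes of the interaction became 57 with DESeq2, 2 with limma-voom, 5 with the block and 1 to 5 without 1 library, with 1 gene left without WT replicate 1 or WT replicate 3, and 2 genes without Puma replicate 1, Puma replicate 3, G3 mTerc-/-Puma+/+ replicate 1 or 2 or TercPuma replicate 1. Genes called within 1 Mb of Terc (1) were 2 with DESeq2 and 1 to 2 without 1 library, the highest without WT replicate 3. The share of like sign ran from 43.0% to 79.5% for genes picked in the Puma+/+ label and from 51.8% to 79.3% for those picked in the Puma-/- label without 1 library, and was 62.5% and 74.8% with all 15. The sign of Bbc3 turned with the sex covariates (-0.040) and without the TercPuma libraries (-0.082).

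List medians, examined under these settings after seeing the data, shrank with the sex covariates to 0.060 for p53 targets, -0.19 for megakaryocyte, 0.088 for erythroid, 0.068 for neutrophil and -0.21 for MHC class II genes, while heavy chain (-1.23) and kappa (-1.06) segments moved little. With all 15 libraries the heavy chain and kappa medians were -0.64 and -0.51, and the erythroid median was 1.18. The erythroid median was 0.23 without TercPuma replicate 1, and the p53 median 0.13. Genes under about 1 CPM rest on few counts.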

Other observations

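Beside the groups described above, several lists held no gene past the adjusted threshold in edgeR's test and are given as counts at an unadjusted p under 0.05. Over all autosomal genes 53.2% lay above 0, 3.51% were higher and 4.29% lower at that threshold. Of 25 genes of DNA replication and the G1/S transition, 6 were higher and 0 lower, and 22 lay above 0. Ccne2, which encodes cyclin E2, had a log2 fold change of 0.27 (adjusted p = 0.186, SE 0.0616) and Rrm2, of ribonucleotide reductase, of 0.25 (adjusted p = 0.422, SE 0.0795). All 28 respiratory chain subunits lay above 0, 2 of them at an unadjusted p under 0.05, with a median of 0.098. All 10 eosinophil genes lay below 0, 4 at an unadjusted p under 0.05, with a median of -0.38. Of 30 stem cell genes 5 were lower and 0 higher, with a median of -0.20, and Gata2, a transcription factor of stem cells and mast cells, had -0.51 (adjusted p = 0.428, SE 0.163). T and NK cell genes lay above 0 in 17 of 20, and the 1 gene that was higher is a share close to that over all genes.

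Immediate early genes, which respond within minutes to handling as well as to signals, had median log2 fold changes of -0.84 (Puma+/+ label) and 0.43 (Puma-/- label). All 20 lay below 0 in the first and 19 above 0 in the second. For the difference, 12 had an unadjusted p under 0.05, beside 4.90% of all genes. Their pooled median of -0.14 was therefore an average over opposite directions.

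In 17 further genes the deficient and proficient libraries did not overlap although the adjusted p exceeded 0.05. Pvt1, a long non-coding RNA next to Myc, ran from 4.36 to 8.92 CPM against 1.51 to 3.26, with a log2 fold change of 1.09 (adjusted p = 0.0579, SE 0.194). Ighv5-17, a heavy chain variable segment, ran from 0.949 to 12.3 CPM against 14.7 to 50.6 (adjusted p = 0.0555). Pink1, a kinase of mitochondrial quality control, ran from 45.4 to 70.1 CPM against 71.0 to 81.8, with -0.40 (adjusted p = 0.0982, SE 0.0791). These genes were chosen after their values were seen.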
